A study of Caenorhabditis elegans with 12 samples.

Results

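The genes described here encode 4 families of nematode-specific peptides in Caenorhabditis elegans, named nspa, nspb, nspc and nspe. They were chosen by gene symbol. Of the 46904 gene rows in each deposited table, 48 carried such a symbol. Rows of a family that held the same value in all 12 libraries were counted once, which left 41 members, of which 4 were nspa, 12 nspb, 17 nspc and 8 nspe. The rows merged in this way were both copies of nspc-2 and 7 nspa rows that were at 0 in every library (both copies of nspa-1, both copies of nspa-7, nspa-2, nspa-9 and nspa-10).

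RNA was sequenced from whole animals at day 1 of adulthood, in 12 libraries of 4 genotypes with 3 libraries each. The genotypes were the pfd-6(gk493446); daf-2(e1370) double mutant (strain IJ485), daf-2(e1370) (strain CF1041), pfd-6(gk493446) (strain IJ462) and the N2 wild type. All animals grew on bacteria for control RNA interference to the L4 stage and were then placed on plates with FUdR, a drug that stops DNA synthesis and so the production of progeny. The protocol names control and pfd-6 RNA interference plates for that last step, and no label says which plate a library came from. Total expected counts ran from 19394046 to 41009125 per library, and 3 counts corresponded to between 0.0732 and 0.155 CPM (counts scaled to one common library total) before the TMM factor.

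Nematode-specific peptide families are sets of small predicted proteins grouped by sequence similarity within the nematodes; their names record that similarity and not a function, and the biochemical role of most of them is unknown. DAF-2 is the worm's insulin/IGF-1 receptor. When its signalling is low, the FOXO transcription factor DAF-16 enters the nucleus, raises one set of transcripts and lowers another, and the animals live long. PFD-6 is a subunit of prefoldin, a chaperone that hands newly made actin and tubulin to the TRiC/CCT chaperonin.

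The 4 families differed in gene structure and in place (WBcel235 assembly). The 18 nspc rows all lay on chromosome X, each with 2 exons, an exon length of 306 to 448 bases and a predicted peptide of 101 to 103 residues. They formed 3 clusters: cluster A from 8534672 to 8542283 (7 rows, nspc-1 to nspc-7), cluster B from 12342946 to 12361159 (6 rows, nspc-9 to nspc-15) and cluster C from 14523575 to 14530207 (5 rows, nspc-16 to nspc-20). Clusters A and C held no other protein-coding gene within their 7.6 kb and 6.6 kb, while cluster B, which spans 18.2 kb, held 5. Neighbouring nspc genes mostly pointed towards or away from each other, with 7 divergent and 6 convergent neighbours and 2 on the same strand. The 8 nspe rows lay within 16.9 kb of chromosome II and predicted peptides of 71 to 75 residues. The nspb genes, with peptides of 79 to 86 residues, were spread over chromosomes II, III and IV. The nspa models were the shortest, each 1 exon of 105 bases that codes for 34 residues and holds no untranslated sequence, and 9 of the 10 lay within 140.8 kb of chromosome V.

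**Figure D1:**
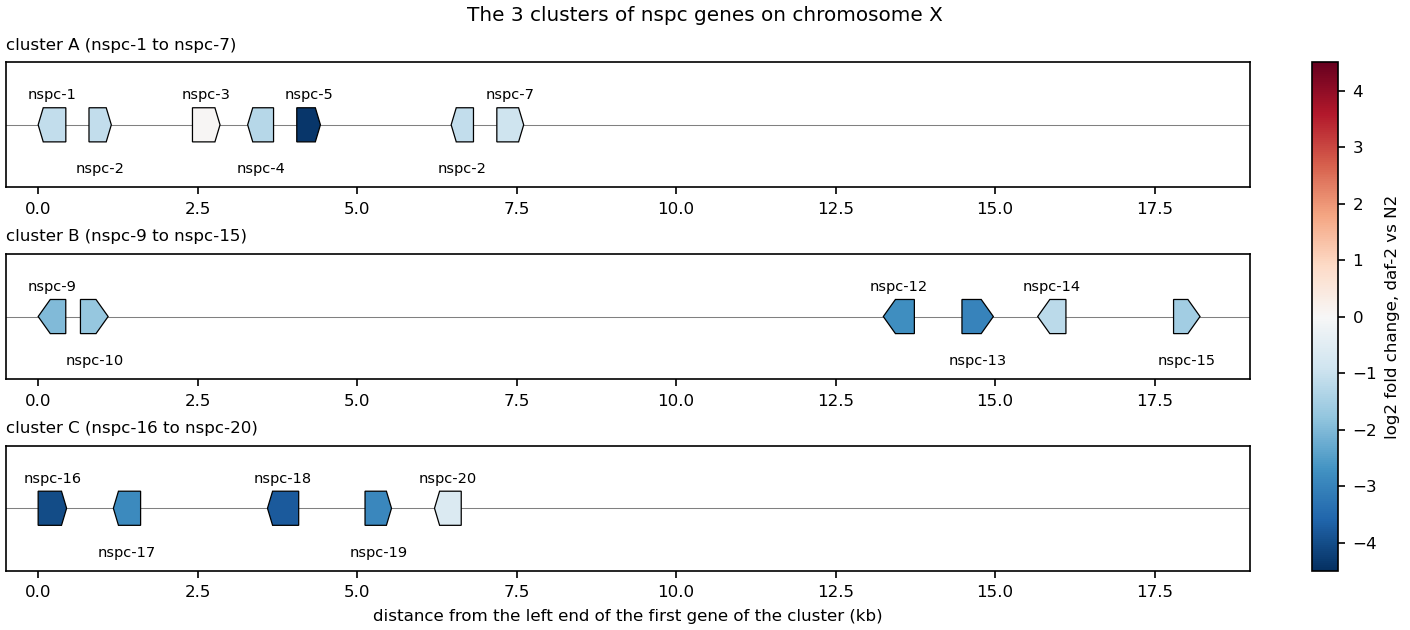
Arrangement of the nspc genes in their 3 clusters on chromosome X, drawn to scale as distance in kb from the left end of each cluster, with each arrow pointing in the direction of transcription and its colour giving the log2 fold change of daf-2 over N2. In cluster C, nspc-16 to nspc-19 (-2.85 to -4.02) stand beside the paler nspc-20 (-0.66), and in cluster A nspc-5 (-4.38) stands among paler genes.

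Close copies matter for how these genes can be read. Among tested genes 6.28% of the deposited values were not whole numbers, as arises when reads are divided between genes, against 77% for nspc, 83.3% for the tested nspa members and 0% for the tested nspe members. Within nspc, nspc-4 had whole values in all libraries and nspc-18 a fractional value in 1 library, while nspc-16, nspc-19, nspc-1, nspc-7, nspc-15, nspc-10 and nspc-3 were fractional in all 12. Fractional values were also held by nspc-20 in 11 libraries and by nspc-5 in 10. Levels of single nspc genes with fractional values are therefore uncertain with respect to their close relatives, and the family sum is less exposed to that division. The strand setting of the counting is not given in the sources used here; nspc-15, nspa-8, nspb-1 and nspb-2 each overlap another annotated gene, so reads of the 2 genes cannot be told apart there.

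Levels are CPM scaled by library size and the TMM factor. Summed over its members, nspc held between 87.1% and 99.2% of the CPM of all 4 families in every library. The nspc sum was 139, 118 and 107 CPM in the double mutant, 179, 111 and 72.1 CPM in daf-2, 446, 158 and 227 CPM in pfd-6 and 387, 344 and 246 CPM in N2 (replicates 1, 2 and 3 in each case). All 3 daf-2 libraries and all 3 double mutant libraries were below all 3 N2 libraries, and pfd-6 libraries lay on both sides of N2. By genotype means the nspe sum came next, although in double mutant replicate 3 it was below the nspa sum. It was at 13.2, 7.92 and 5.20 CPM in the double mutant, 13.96, 5.97 and 1.14 in daf-2, 20.8, 9.45 and 0.96 in pfd-6 animals and 16.8, 12.9 and 4.56 in N2, so that the genotypes overlapped. The nspa sum was 6.45, 4.98 and 8.54 CPM in the double mutant, 9.74, 3.26 and 0.221 in daf-2, 8.38, 1.13 and 0.219 in pfd-6 animals and 3.36, 3.57 and 4.49 in N2. The nspb sum did not pass 2.11 CPM in any library.

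**Figure D2:**
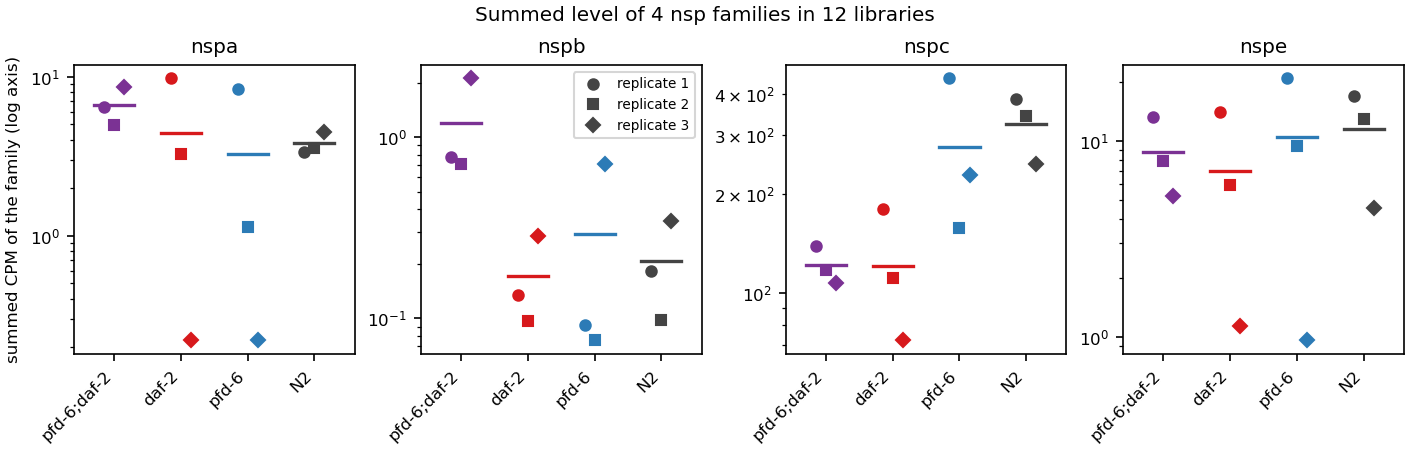
Summed CPM (log axis) of each family in the 12 libraries, by genotype; symbols mark replicates 1, 2 and 3 and the bar is the mean of the 3. The nspc sums of the double mutant (107 to 139 CPM) and of daf-2 (72.1 to 179 CPM) lie below those of N2 (246 to 387 CPM), and replicate 3 of daf-2 and of pfd-6 is far below the others for nspa and nspe.

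Several features of the libraries bear on these values. The share of counts in ribosomal protein genes was 1.41% for daf-2 replicate 3 and 0.609% for pfd-6 replicate 3, against 9.33% to 15.9% in the other 10 libraries. The nspa and nspe sums were lowest in the same 2 libraries, and the nspc sum was lowest of all 12 libraries in daf-2 replicate 3 and between those of the other pfd-6 libraries in pfd-6 replicate 3; the part of RNA quality or library preparation in this was not tested. Transcripts of pfd-6 were at 16.4, 14.4 and 16.9 CPM in the double mutant, 158, 77.6 and 66.4 CPM in daf-2, 21.3, 11.4 and 8.996 CPM in pfd-6 and 143, 86.9 and 102 CPM in N2, low in the 6 libraries labelled with the pfd-6 mutation. Of the whole-body marker lists, all 8 intestinal, 6 muscle, 6 neuronal and 9 germline and oocyte genes had counts in every library, as did 30 of 36 rows for sperm. In whole animals, fewer cells of a type and less RNA per cell cannot be told apart.

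All 17 nspc members passed the filter on low counts, as did 3 nspa members and 4 nspe members (nspe-1, nspe-2, nspe-4 and nspe-5), but no nspb member did. Per kb of exon and averaged over the 12 libraries, nspc levels ran from 2.10 CPM per kb for nspc-12 to 69.7 for nspc-15. Next to nspc-15 stood nspc-7 (65.7), nspc-14 (63.5), nspc-1 (63.1) and nspc-20 (62.1), so each of the 3 clusters held at least 1 of the 5 highest members. Cluster C was otherwise low, at 6.33 to 13.2 CPM per kb for nspc-16, nspc-17, nspc-18 and nspc-19. The highest nspe gene, nspe-1, stood at 32.1 and the highest nspa gene, nspa-8, at 21.8 CPM per kb, on exon models of 216 and 105 bases.

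**Figure D3:**
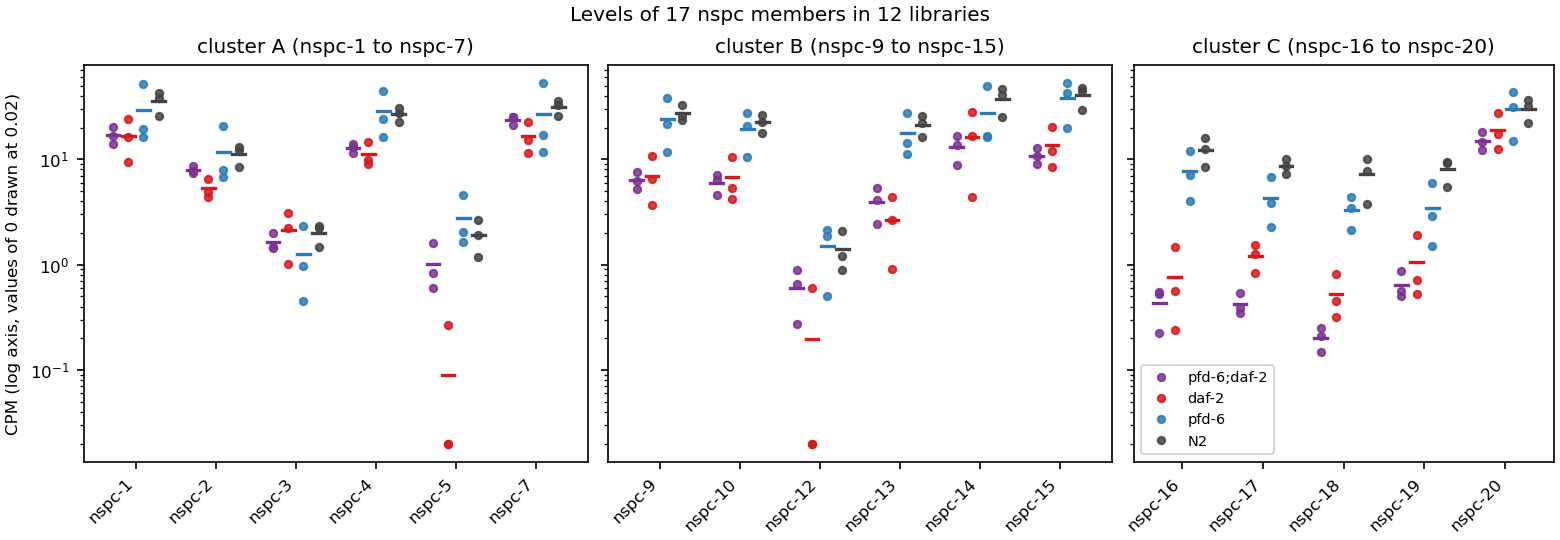
CPM (log axis) of the 17 nspc members in the 12 libraries, in chromosome order within clusters A, B and C; points are libraries, bars are genotype means, and values of 0 are drawn at 0.02. In cluster C the double mutant and daf-2 libraries of nspc-16 to nspc-19 lie between 0.147 and 1.92 CPM and all N2 libraries at or above 3.796 CPM, while nspc-20 stays between 12.3 and 43.3 CPM in all 12 libraries.

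Setting daf-2 against N2 addresses the response of these transcripts to reduced insulin/IGF-1 receptor activity. Cluster C of nspc was low in daf-2. The transcript nspc-18 was at 0.811, 0.452 and 0.315 CPM in daf-2 and 9.998, 7.73 and 3.796 CPM in N2. The highest daf-2 library was below the lowest N2 library, and the fall was 3.77 on the log2 scale (SE 0.52, edgeR adjusted p = 0.00389). The transcript nspc-16 was at 1.48, 0.563 and 0.238 CPM in daf-2 and 15.98, 12.6 and 8.54 CPM in N2 (log2 fold change -4.02, SE 0.65, edgeR adjusted p = 0.0121). Its groups did not overlap either. The transcript nspc-17 averaged 1.21 ± 0.344 CPM in daf-2 and 8.70 ± 1.39 CPM in N2, and nspc-19 averaged 1.05 ± 0.755 CPM in daf-2 and 8.02 ± 2.22 CPM in N2 (SD, n = 3 each); both passed, with log2 fold changes of -2.85 and -2.94.

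The last gene of cluster C behaved otherwise. The transcript nspc-20, singled out after its values were seen, was at 27.4, 17.5 and 12.5 CPM in daf-2 and 36.4, 32.1 and 21.9 CPM in N2, with overlapping libraries and a log2 fold change of -0.66 (SE 0.41, edgeR adjusted p = 0.644). It lies 673 bases from nspc-19 and points towards it.

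In cluster B the single gene that passed was nspc-13, at 4.35, 2.66 and 0.914 CPM in daf-2 and 25.7, 22.03 and 16.4 CPM in N2 (log2 fold change -3.02, SE 0.56, edgeR adjusted p = 0.0237). All daf-2 libraries were below all N2 libraries for nspc-13, and the same held for nspc-9 (-1.98), nspc-10 (-1.74), nspc-12 (-2.80) and nspc-15 (-1.57), none of which passed. The groups overlapped for nspc-14 (-1.2). In cluster A no gene passed. The lowest value there was that of nspc-5, with 0.268, 0 and 0 CPM in daf-2 and 2.64, 1.19 and 1.92 CPM in N2 (-4.38, SE 0.99, edgeR adjusted p = 0.0656). Its expected counts were fractional in 10 of the 12 libraries, all except the daf-2 libraries at 0. The part of read division in these values was not tested. The highest value was that of nspc-3, at 3.07, 2.25 and 1.01 CPM in daf-2 and 2.24, 2.33 and 1.46 CPM in N2 (0.07). The genes nspc-1 (-1.09), nspc-2 (-1.09) and nspc-7 (-0.93) were lower in all daf-2 libraries than in any N2 library and did not pass. The gene nspc-4, whose values were all whole, averaged 11.1 ± 2.92 CPM in daf-2 and 26.7 ± 4.03 CPM in N2 (SD, n = 3 each; -1.27, edgeR adjusted p = 0.162).

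Together, 5 of 17 nspc members were called lower and 0 higher in daf-2, where 0.219% of the 15090 tested genes were called lower and 0.716% higher. The fold change was negative for 16 of the 17, against 47.9% of tested genes, and daf-2 libraries lay entirely below N2 for 14, against 7.63% of tested genes. Close copies may share reads, so the 17 members are not independent observations, here or in the comparisons below. The median log2 fold change was -1.74 for nspc, with -1.09 in cluster A, -1.86 in cluster B and -2.94 in cluster C, and 0.03 over all tested genes. Over the 610 tested genes with an exon length in the nspc range it was -0.07. With the replicate number as a block, a fit that the pairing of these libraries calls for, 9 nspc members were lower, with nspc-5, nspc-9, nspc-10 and nspc-15 added. The share of all tested genes called by that fit was not taken, so the count of 9 has no yardstick. The count of 5 was 1 without N2 replicate 1 or without daf-2 replicate 2, 3 without N2 replicate 2 or daf-2 replicate 3, and 2 with replicates 1 and 2 alone; nspc-18 was called in all 22 alternatives.

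Setting the double mutant against pfd-6 addresses the same response where pfd-6 is mutated too. These libraries are not those set against each other in the previous comparison, but all 12 libraries share one fit. The transcript nspc-18 was at 0.211, 0.248 and 0.147 CPM in the double mutant and 4.36, 2.15 and 3.48 CPM in pfd-6 (log2 fold change -3.99, SE 0.55, edgeR adjusted p = 0.00435). The transcript nspc-17 was at 0.388, 0.539 and 0.344 CPM in the double mutant and 6.84, 2.27 and 3.81 CPM in pfd-6 (-3.34, SE 0.47, edgeR adjusted p = 0.00485). Neither gene overlapped between the groups. The transcript nspc-16 was at 0.527, 0.546 and 0.223 CPM in the double mutant and 12.1, 4.06 and 7.13 CPM in pfd-6, a fold change of -4.09 on the log2 scale.

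Cluster B contributed nspc-15 (-1.83), nspc-9 (-1.91) and nspc-13 (-2.16, edgeR adjusted p = 0.0496), while nspc-10 (-1.70) and the cluster C gene nspc-19 (-2.44) were at an adjusted p of 0.0504. Cluster A again had no called gene, with a median of -0.67 against -1.76 in cluster B and -3.34 in cluster C. In all, 6 of 17 nspc members were called lower and 0 higher, against 1.00% of tested genes lower and 2.29% higher. Double mutant libraries lay entirely below pfd-6 for 10 members, where 13.9% of tested genes did so. The 4 genes nspc-13, nspc-16, nspc-17 and nspc-18 were called lower in both comparisons, which is 80% of those called in daf-2 against N2 and 66.7% of those called here. The matching share among all called genes was not counted, so these percentages have no yardstick.

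The count of 6 was 3 when any 1 double mutant library was left out, and without pfd-6 replicate 1 or 3. It was also 3 without N2 replicate 1 or without daf-2 replicate 2. Libraries of N2 and daf-2 enter this comparison only through the shared filter, scaling, estimate of the spread and adjustment of p-values. The count was 12 with an offset for transcript length, which added nspc-1, nspc-4, nspc-10, nspc-14, nspc-19 and nspc-20. The share of all tested genes called with that offset was not taken.

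**Figure D4:**
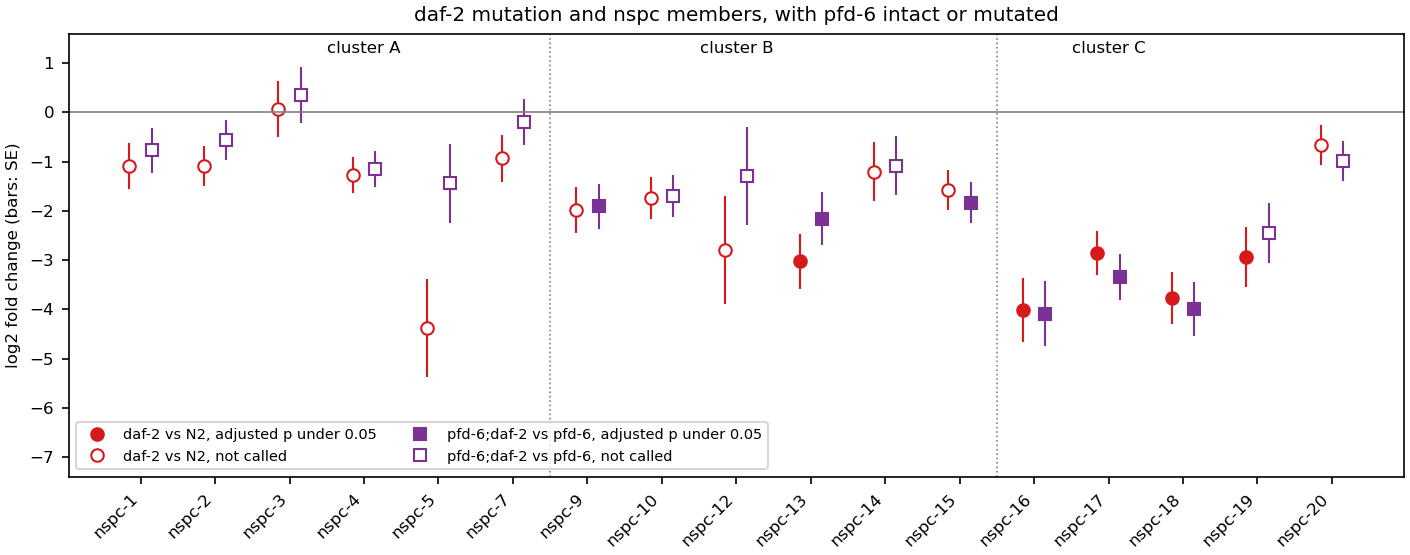
Log2 fold change with its SE, derived from the F statistic, for the 17 nspc members in chromosome order. Circles are daf-2 over N2 and squares the double mutant over pfd-6. Filled symbols passed the edgeR test without a replicate block at an adjusted p under 0.05. Both comparisons have their highest value at nspc-3 (0.07 and 0.35), and nspc-16 is low in both (-4.02 and -4.09), while nspc-5 is lowest for daf-2 over N2 (-4.38) and is at -1.44 for the double mutant over pfd-6.

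The double mutant was also set against N2. The transcript nspc-18 had the lowest value of the 17, a log2 fold change of -5.10 (SE 0.57, edgeR adjusted p = 0.000992), 34.3-fold lower in the double mutant than in N2. The other called genes of cluster C were nspc-16 (-4.76), nspc-17 (-4.35) and nspc-19 (-3.65). In cluster B nspc-13 (-2.44), nspc-9 (-2.12), nspc-15 (-1.91) and nspc-10 (-1.89) also passed. The transcript nspc-15, with the highest level per length, was at 12.7, 10.7 and 8.96 CPM in the double mutant. It was at 47.3, 44.6 and 29.2 CPM in N2, with no overlap between the groups. This gene overlaps another annotated gene, and its values were fractional in all 12 libraries, so its level is uncertain. Thus 8 of 17 nspc members were called lower and 0 higher, against 0.696% and 2.50% of tested genes. All 17 fold changes were negative, against 54.3% of tested genes, and libraries did not overlap for 14, against 17.5%. The count was 3 without N2 replicate 1 or when any 1 double mutant library was left out, 4 without N2 replicate 2, and 5 without daf-2 replicate 2 or with replicates 1 and 2 alone; nspc-16, nspc-17 and nspc-18 were called in all 22 alternatives.

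Ratios between nspc genes of one library do not depend on how libraries are scaled. The sum of nspc-16 to nspc-19 divided by the level of nspc-20 was 0.111, 0.131 and 0.0993 in the double mutant, 0.209, 0.136 and 0.203 in daf-2, 0.676, 0.675 and 0.556 in pfd-6 animals and 1.25, 1.19 and 1.15 in N2. The 4 genotypes did not overlap in this ratio, which stood in the order double mutant, daf-2, pfd-6, N2, also with replicate 3 of daf-2 and of pfd-6 included. The ratio was chosen after the values were seen and carries no test, with nspc-20 set apart because it differed from the rest of cluster C. Values of nspc-16 and nspc-19 were fractional in all 12 libraries and those of nspc-20 in 11. The ratio is therefore exposed to the division of reads between close copies. The summed CPM of cluster B over that of cluster A was 0.719, 0.697 and 0.477 in the double mutant, 1.05, 0.891 and 0.607 in daf-2, 1.11, 1.13 and 1.88 in pfd-6 animals and 1.46, 1.34 and 1.33 in N2. In this ratio, too, the double mutant and daf-2 libraries were all below the pfd-6 and N2 libraries. The closest were daf-2 replicate 1 at 1.05 and pfd-6 replicate 1 at 1.11. This second ratio also carries no test, and it draws on the same values as the cluster medians given above.

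**Figure D5:**
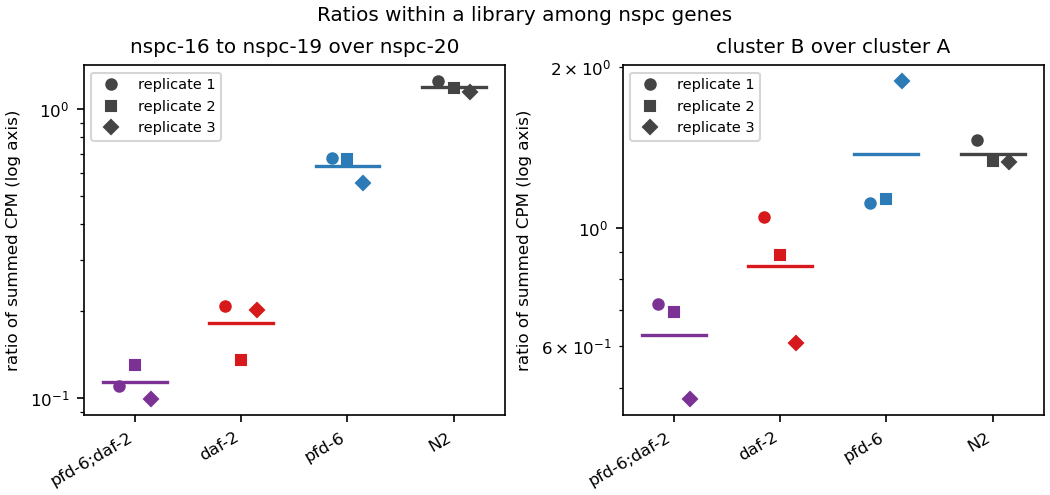
Ratio of summed CPM within each library (log axis) for nspc-16 to nspc-19 over nspc-20 and for cluster B over cluster A, by genotype, with symbols for replicates 1, 2 and 3 and a bar at the mean. The first ratio separates all 4 genotypes, between 0.0993 and 0.131 in the double mutant and between 1.15 and 1.25 in N2.

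Few of the genes beside the clusters were called, as was so for tested genes in general. In daf-2 over N2 edgeR called 0.716% of tested genes higher and 0.219% lower. In the double mutant over pfd-6 it called 2.29% and 1.00%, and over N2 2.50% and 0.696%. An unadjusted p under 0.05 was held by 1518 of the 15090 tested genes in the first and 3074 in the second. Counts of 0 among 6 or 7 genes cannot set the neighbours apart from these shares. Of 7 tested genes other than nspc inside cluster C or within 20 kb of it, edgeR called 0 in daf-2 over N2, with log2 fold changes from -0.39 to 0.96. It called 0 in the double mutant over pfd-6 as well, with changes from -0.83 to 0.65. Of 6 such genes around cluster A it called 0 in either comparison, and DESeq2 called 0 around both clusters, with 0 at an unadjusted p under 0.05. Of 7 around cluster B, 1 was called lower in the double mutant over pfd-6, rif-1.2 (-3.24, edgeR adjusted p = 0.0229), named after its values were seen. In the double mutant over N2 edgeR called 1 gene around cluster B, again rif-1.2 (-4.27, edgeR adjusted p = 0.0069), and DESeq2 called 2. The gene rif-1.2 was also called lower in the double mutant over daf-2 (-2.79, edgeR adjusted p = 0.0398). The same edgeR fit, without a replicate block, called 0 nspc genes there. With the replicate number as a block, 1 nspc gene, nspc-5, was called higher in that comparison. Around cluster B edgeR and DESeq2 called 0 in daf-2 over N2, with 1 at an unadjusted p under 0.05.

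The effect of the pfd-6 mutation was measured first with daf-2 wild type, against N2. By edgeR 0 of the 24 tested members passed, and DESeq2 called 0. An unadjusted p under 0.05 was held by 2 members, a share near the 6.93% of tested genes. Both were in cluster C. They were nspc-17, at 6.84, 2.27 and 3.81 CPM in pfd-6 and 10.1, 8.69 and 7.32 CPM in N2 (log2 fold change -1.01, SE 0.42), and nspc-18 (-1.11, SE 0.46), each with an edgeR adjusted p of 0.614. The pfd-6 libraries of nspc-17 were all below those of N2, as were those of 414 of the 15090 tested genes. For nspc-18 the groups overlapped. The median log2 fold change was -0.08 in cluster A, -0.20 in cluster B and -1.01 in cluster C, and 0.04 over all tested genes, of which 0.0994% were called.

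The same effect in animals that carry the daf-2 mutation was measured between the double mutant and daf-2. By edgeR 0 members passed, where 3.11% of tested genes were called. An unadjusted p under 0.05 was held by 3 of the 24 members, a share near that of tested genes (2265 of 15090). The transcript nspc-5 was at 0.829, 1.59 and 0.606 CPM in the double mutant and 0.268, 0 and 0 CPM in daf-2 (log2 fold change 3.46, SE 0.98, edgeR adjusted p = 0.088). DESeq2 called it higher, as did the edgeR fit with the replicate number as a block, in which its adjusted p was 0.041. The other 2 were nspc-17 (-1.5, edgeR adjusted p = 0.113) and nspc-18 (-1.33, edgeR adjusted p = 0.256), both with all double mutant libraries below all daf-2 libraries. Of the 15090 tested genes, 2137 lay entirely below in the same way. The nspc sum averaged 121 ± 16.4 CPM in the double mutant and 121 ± 54.3 CPM in daf-2 (SD, n = 3 each).

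The interaction tests whether the daf-2 effect differs with the state of pfd-6. By edgeR 0 of 24 members passed, and DESeq2 called 0, where edgeR called 0.139% of tested genes; 1 member, nspc-5, had an unadjusted p under 0.05, against 17.4% of tested genes (log2 difference 2.93, SE 1.25, edgeR adjusted p = 0.269). For the cluster C genes the difference was -0.07 (SE 0.80) for nspc-16, -0.49 (SE 0.61) for nspc-17, -0.23 (SE 0.66) for nspc-18 and 0.50 (SE 0.83) for nspc-19.

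Of the 3 nspa and 4 nspe members tested, edgeR and DESeq2 called 0 in each of the 6 comparisons, and 1, nspe-5, had an unadjusted p under 0.05, in daf-2 over N2, where 1518 of 15090 tested genes did, and in the double mutant over pfd-6, where 3074 did. The most abundant nspe transcript, nspe-1, was at 10.5, 5.60 and 4.17 CPM in the double mutant, 10.1, 3.20 and 0.725 CPM in daf-2, 15.97, 6.92 and 0.686 CPM in pfd-6 and 12.3, 9.39 and 3.66 CPM in N2. Libraries of one genotype spread widely, and the genotypes overlapped (log2 fold change -0.86 for daf-2 over N2, SE 0.97). Its neighbour nspe-2 averaged 1.03 ± 0.611 CPM in the double mutant, 1.15 ± 0.937 in daf-2, 1.89 ± 1.84 in pfd-6 animals and 2.31 ± 1.88 in N2 (SD, n = 3 each). The scarce nspe-5 was at 0.642, 0.420 and 0.189 CPM in daf-2 and 0.130, 0.164 and 0.069 CPM in N2, without overlap, and did not pass (1.67, SE 0.69, edgeR adjusted p = 0.427). In this comparison 1603 of the 15090 tested genes lay entirely higher. The remaining nspe genes were low: nspe-4 averaged 0.58 CPM over the 12 libraries, nspe-6 and nspe-7 had 12 and 20 counts in all libraries together, nspe-3 had 1 and nspe-8 had 0.

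The nspa counts lay in nspa-8 and in both copies of nspa-5. The transcript nspa-8 was at 2.70, 2.30 and 2.58 CPM in the double mutant, 4.35, 1.63 and 0.158 CPM in daf-2, 6.43, 0.756 and 0.165 CPM in pfd-6 and 2.07, 2.40 and 1.88 CPM in N2. The first copy of nspa-5 (WBGene00013887) was at 2.86, 1.82 and 4.43 CPM in the double mutant, 3.96, 1.15 and 0.0284 CPM in daf-2, 1.28, 0.198 and 0.0274 CPM in pfd-6 and 0.786, 0.654 and 1.56 CPM in N2. For both transcripts the daf-2 libraries spanned a wider range than the 4 genotype means. For this copy the double mutant lay above pfd-6 in all libraries, with a log2 fold change of 2.58 (SE 1.21, edgeR adjusted p = 0.252). Of the 15090 tested genes, 2211 lay entirely above in that comparison. The second copy (WBGene00044272) averaged 1.09 ± 0.379 CPM in the double mutant, 0.648 ± 0.711 in daf-2, 0.292 ± 0.335 in pfd-6 animals and 0.688 ± 0.312 in N2 (SD, n = 3 each).

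The 12 nspb genes were nearly silent. Their expected counts summed to 22, 23 and 43 in the double mutant libraries, 4, 3 and 9 in daf-2, 3, 2 and 26 in pfd-6 animals and 7, 3 and 5 in N2. The double mutant libraries were above all daf-2 and N2 libraries, and 21 of the 26 counts in pfd-6 replicate 3 came from nspb-2, the nspb gene with the most counts. Next in mean CPM were nspb-6, nspb-9 and nspb-12, whose highest values, 0.393, 0.344 and 0.295 CPM, were all in double mutant replicate 3. Tested without the filter on low counts, 0 of 12 nspb genes passed in any comparison. The lowest edgeR adjusted p was 0.0709, for the double mutant over pfd-6, where 5 had an unadjusted p under 0.05. With the filter, 3074 of the 15090 tested genes had such a p there, and the share without it was not taken. The summed level of 35 sperm marker symbols was highest in the 3 double mutant libraries, at 280 to 732 CPM. It was 8.99 to 30.1 CPM in daf-2, 15.8 to 92.8 in pfd-6 animals and 21.3 to 126 in N2. In pfd-6 replicate 3, where the nspb count of 26 passed those of 2 double mutant libraries, the sperm sum was 25.5 CPM. The part of sperm transcripts in the nspb counts was not tested.

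Other families with nsp names were measured for comparison. Between the double mutant and daf-2, 2 of 9 tested nspd genes and 5 of 7 tested nsph genes were called higher, with median log2 fold changes of 4.29 and 4.39, beside 29 of 34 tested sperm markers with a median of 4.61. Of all 15090 tested genes, 412 were called higher there. The nspc median in that comparison was -0.16. For daf-2 over N2, edgeR and DESeq2 called 0 of 9 nspd, 0 of 11 nspg and 0 of 7 nsph genes, with medians of -1.31, -0.41 and -1.69. Over all tested genes edgeR called 0.716% higher and 0.219% lower. An unadjusted p under 0.05 was held by 0, 0 and 2 genes of these families, against 1518 of the 15090 tested genes. No nspf gene had enough counts to be tested. The nspg genes held a summed level of 948 to 1132 CPM in the double mutant, 514 to 1458 in daf-2, 986 to 1504 in pfd-6 animals and 670 to 1763 in N2.

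Tissue markers were set beside the nspc values. For daf-2 over N2 edgeR called 0 genes of the 9 tissue lists, and DESeq2 called 1 pharyngeal gene. Over all tested genes edgeR called 0.716% higher and 0.219% lower. An unadjusted p under 0.05 was held by 8 of 34 sperm, 2 of 8 intestinal and 2 of 5 pharyngeal genes tested, against 1518 of all 15090. Medians lay between -1.62 for sperm and 0.34 for embryo, with -0.35 for 8 intestinal and -0.64 for 10 cuticle and hypodermal genes. Ribosomal protein genes had a median of -0.69. For the double mutant over pfd-6, where nspc had a median of -1.44, 9 of 34 sperm markers and 1 of 10 cuticle markers were called higher and none lower. Over all tested genes 2.29% were called higher and 1.00% lower. The medians were 3.38 for sperm, 0.57 for intestine and 1.41 for cuticle and hypodermis. The part of any tissue in the nspc values was not tested.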

How the data were processed

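Paired-end mRNA sequencing of whole day 1 adults gave 1 deposited table per library. Its values, as deposited by the authors, are expected counts for each gene, per the file headers, with no scaling to depth. The tools in the submitters' processing notes, which assign no step to any, include RSEM 1.3.1, HISAT2 2.0.5 and StringTie 1.3.3. Symbols, positions and exon lengths came from the WBcel235 annotation (Ensembl release 115), which held all 48 rows; sequences were not analysed here.

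After rounding, filterByExpr kept 15090 genes, and libraries were scaled with TMM factors. The edgeR 4.0.16 quasi-likelihood test (R 4.3.3) was fitted over all 12 libraries with genotype as covariate, and p-values were adjusted by the Benjamini-Hochberg method over all genes tested, with a call at 0.05. Each SE given with an edgeR fold change is its absolute value on the log2 scale divided by the square root of the quasi-likelihood F statistic. It is less reliable where the fold change is near 0. The interaction is the double mutant minus pfd-6, minus the difference of daf-2 and N2. DESeq2 1.42.0 and 21 other settings were alternatives. The edgeR step was tested on simulated counts. Clusters join members of a family at most 100 kb apart. The members and lists were chosen with earlier results of these data known. Members named are those called in any comparison, the 4 highest of each family by mean CPM, and each family's highest and lowest fold change for daf-2 over N2 and for the double mutant over daf-2; nspc-2, nspc-4, nspc-12 and nspc-20, and nspe-3, nspe-6, nspe-7 and nspe-8, were added after their values were seen.

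The protocol calls the 3 libraries of a genotype biological repeats, the last of them sequenced later, with no number given. All replicate pairs differed beyond sampling noise, with chi-square over its degrees of freedom at 21.66 or more. Same-numbered libraries were correlated in their deviations from genotype means: 0.453, 0.271 and 0.31 for daf-2 with N2, 0.315, 0.211 and 0.137 for the double mutant with daf-2, and 0.33, 0.368 and 0.501 for the double mutant with N2. The numbers were therefore taken to pair the libraries in these comparisons, and not in the double mutant with pfd-6 (0.299, 0.049 and 0.019) or pfd-6 with N2 (0.345, 0.034 and 0). The correlations were highest for pfd-6 with daf-2 (0.749, 0.655 and 0.704), which were not compared directly but share the fit and enter the interaction.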

Additional observations from a re-analysis of the deposited data

How the results depend on the processing

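Counts of called members are given here for nspc, the one family with calls. For daf-2 over N2 (5 members) the count was 2 at an adjusted p under 0.01, 10 by DESeq2, 3 with the compared genotypes alone, 9 with the replicate block, 2 with replicates 1 and 2 alone and 8 with the block and a length offset together; leaving out 1 library gave 1 to 7. For the double mutant over N2 (8) it was 3 at an adjusted p under 0.01 and 5 with replicates 1 and 2 alone, and 3 to 8 with 1 library left out. For the double mutant over pfd-6 (6) it was 2 at an adjusted p under 0.01, 3 with the compared genotypes alone or replicates 1 and 2 alone, and 12 with the length offset, with or without the block; leaving out 1 library gave 3 to 9. Its pairing did not hold, and the replicate block gave 9. For the double mutant over daf-2 (0) the count was 1 by DESeq2, with the replicate block, and with the length offset, with or without the block. It stayed 0 for pfd-6 over N2 and for the interaction in every alternative run. The replicate block changed no other count by over 1.5 times. Shares of all tested genes called under the alternatives were not taken, so a higher or lower count there has no yardstick.

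With both replicate 3 libraries low in ribosomal protein counts (daf-2 and pfd-6) left out, the counts were 4 for daf-2 over N2, 8 for the double mutant over N2 and 5 for the double mutant over pfd-6. The sign turned for nspc-3 in daf-2 over N2 (-0.01 with the replicate block, -0.16 without N2 replicate 3, -0.30 without daf-2 replicate 1; leaving out 1 library gave -0.30 to 0.42). It also turned for nspc-3 in the double mutant over pfd-6 (-0.17 with replicates 1 and 2 alone, -0.08 without both replicate 3 libraries, -0.01 without pfd-6 replicate 3; up to 1.17 without pfd-6 replicate 1) and for nspc-7 there (0.06 with the replicate block, and -0.52 to 0.73 with 1 library left out, the highest without pfd-6 replicate 1). The cause of these changes was not tested. The 12 nspb genes and 4 of the 8 nspe genes had too few counts to pass the filter.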
